A study of Mus musculus with 12 samples.

Results

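The 10 genes described here encode S100 calcium-binding proteins and neutrophil granule or secreted proteins: S100a8, S100a9, S100a4, S100a6, S100a11, Lcn2, Ngp, Camp, Ltf and Retnlg. They were chosen by name from the 31053 genes of the count table, and all 10 were found there. Each was followed across neutrophils, monocytes, macrophages and dendritic cells of MC38 tumors, with lymphocytes of the same libraries as the floor that free RNA can give.

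MC38 is a colon adenocarcinoma line of C57BL/6 origin. The study injected 250000 MC38 cells under the skin of 12 female C57BL/6 mice on day 0, and took the tumors on day 17. There were 4 groups of 3 mice. One group received PF-06821497, an inhibitor of the histone methyltransferase EZH2 (EZH2i), at 100 mg/kg daily by subcutaneous injection for 7 days, with the first dose on day 10, and one received it for 16 days, with the first dose on day 1. The other 2 groups received vehicle on the same schedules. CD45+ cells were taken with magnetic beads and sequenced as 12 single-cell 3' libraries. All groups therefore share the tumor, the strain and the CD45 enrichment, and no tumor-free tissue or blood was measured. The cell barcodes carry a library number from 1 to 12, and neither the sample labels nor the files state which mouse or treatment a number stands for. No vehicle and EZH2i values were compared, and values are given by library, without a p-value.

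S100A8 and S100A9 are small calcium-binding proteins that pair to form calprotectin, which binds zinc and manganese and is a major protein of neutrophil cytosol. S100A4, S100A6 and S100A11 belong to the same family but are made by many cell types, where they bind cytoskeletal and membrane proteins. The granule proteins are made in a fixed order while a neutrophil matures in bone marrow: lactoferrin (Ltf), the cathelicidin Camp and neutrophilic granule protein (Ngp) belong to the specific granules, lipocalin 2 (Lcn2) binds bacterial siderophores, and Retnlg encodes a secreted resistin-like protein of mature neutrophils. Transcripts for specific granules are largely lost before the cell leaves the marrow, whereas S100a8 and S100a9 transcripts persist.

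Of the 5 S100 members, 4 lie close together on chromosome 3 in the GRCm38 annotation. S100a4 is at chr3:90603771-90606045 and S100a6 at chr3:90612882-90624181, both on the plus strand. S100a8 is at chr3:90668978-90670035 on the plus strand, and S100a9 at chr3:90692632-90695721 on the minus strand, so they converge across a gap of 22.6 kb that holds 0 other protein-coding genes. S100a11 lies at chr3:93520488-93526287, which is 2825 kb from S100a9. The genes for the 3 specific granule proteins are on chromosome 9: Camp at chr9:109847379-109849617, Ngp at chr9:110419747-110423012 and Ltf at chr9:111019271-111042767. Lcn2 is at chr2:32384633-32388252 and Retnlg at chr16:48872621-48874496. S100a4 overlaps another annotated gene on its own strand, Gm42674, so its counts carry the uncertainty of that overlap.

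The 250 bases before the RefSeq start of each member were searched for TTNNGNAA (TTNCNNAA on the other strand), the core pattern that C/EBP factors of the granulocyte lineage are known to bind. It was present in 6 of the 10 members, S100a8, S100a9, Lcn2, Ngp, Ltf and Retnlg, and in 36.8% of 32851 promoters of the same length. These letters were not in the windows of S100a4, S100a6, S100a11 and Camp. The 5 promoters below are those of the calprotectin pair, of 2 granule genes that were detected in few cells, and of S100a4, which was highest in monocytes. Capitals mark TTNNGNAA on either strand, each sequence runs 5′ to 3′ on the strand of the gene, and all come from RefSeq on GRCm38.p6.
S100a8, chr3:90668821-90669070 (+): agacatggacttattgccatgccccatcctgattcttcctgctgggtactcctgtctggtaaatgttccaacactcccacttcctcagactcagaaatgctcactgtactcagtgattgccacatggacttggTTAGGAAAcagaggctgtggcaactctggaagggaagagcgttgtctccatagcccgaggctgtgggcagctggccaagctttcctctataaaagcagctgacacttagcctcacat
S100a9, chr3:90695722-90695971 (−): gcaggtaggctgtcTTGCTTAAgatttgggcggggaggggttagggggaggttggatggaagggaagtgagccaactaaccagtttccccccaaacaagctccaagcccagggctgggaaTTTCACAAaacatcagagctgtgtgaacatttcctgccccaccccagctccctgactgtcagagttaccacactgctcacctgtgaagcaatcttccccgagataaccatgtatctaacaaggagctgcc
Ngp, chr9:110419558-110419807 (+): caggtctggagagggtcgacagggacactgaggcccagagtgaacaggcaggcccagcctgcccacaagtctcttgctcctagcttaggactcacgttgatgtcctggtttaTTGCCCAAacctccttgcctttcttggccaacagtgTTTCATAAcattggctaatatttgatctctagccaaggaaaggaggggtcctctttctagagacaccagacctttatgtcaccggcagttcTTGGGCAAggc
Ltf, chr9:111019042-111019291 (+): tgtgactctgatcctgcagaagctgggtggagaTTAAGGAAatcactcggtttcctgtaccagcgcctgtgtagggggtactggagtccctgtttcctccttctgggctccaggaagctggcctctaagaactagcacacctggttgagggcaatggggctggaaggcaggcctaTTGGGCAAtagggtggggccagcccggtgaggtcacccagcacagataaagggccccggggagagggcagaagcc
S100a4, chr3:90603520-90603769 (+): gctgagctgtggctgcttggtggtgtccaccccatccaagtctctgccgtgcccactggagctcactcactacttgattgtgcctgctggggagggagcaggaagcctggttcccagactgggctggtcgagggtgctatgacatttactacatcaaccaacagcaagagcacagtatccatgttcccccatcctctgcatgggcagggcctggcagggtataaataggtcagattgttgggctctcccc
The Ngp window held 3 matches, at 138, 102 and 11 bases before the start, and the S100a9 and Ltf windows held 2 each. S100a8 had 1 match, at 117 bases. The S100a8 and S100a4 windows also held the letters TATAAA (both strands were searched), at 30 and 31 bases before the start, as did 12.4% of all promoters. A match is a run of letters, and no binding was measured.

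Unique molecular identifiers (UMIs) mark single captured mRNA molecules. After filtering, 128912 of 140639 barcodes were kept, and 103128 of them were placed in a class by lineage genes that include none of the 10 members. The neutrophil gate held 3178 cells with a median of 1405 UMIs, the monocyte gate 3514 with 3570.5, the macrophage gate 89055 with 5170, the dendritic gate (3 conventional types together) 1558 with 4361 and the lymphocyte gate (T, NK and B cells) 5598 with 2813. Genes outside the gate also differed by class. The gelatinase Mmp9 stood at 379 counts per 1000000 UMIs (CPM) in neutrophils against 3.55 in monocytes (1.19 without library 4) and 2.39 in macrophages, and Cd2, a T and NK cell surface protein, at 361 in lymphocytes. The neutrophil check genes Clec4e, Slpi and Csf1 were likewise highest in neutrophils among myeloid classes. Cd177, from the same list, went the other way, at 22.9 CPM in neutrophils against 44.8 in monocytes. Of the monocyte check genes, Fn1, Ifitm3, Gpr141 and Clec4a1 were highest in monocytes. Ly6a was not, at 696 CPM in monocytes against 893 in macrophages. Libraries differed in depth, with 3330 to 37413 cells kept and a median of 2291 to 15081 UMIs per cell, and neutrophils made up 0.142% to 10.6% of the cells. Library 4 held 1203 of the neutrophils, and library 5 held 36, so library 5 enters no range of neutrophil levels in CPM. Pairs of libraries shared 2 to 182 barcodes, at most 1.17% of the smaller library. Levels are CPM over the summed UMIs of a class in a library with at least 50 of its cells.

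S100a8 and S100a9 were among the most abundant transcripts of tumor neutrophils and far lower in the other classes. Monocytes had more S100a8 than macrophages did. In neutrophils, S100a8 stood at 4084 CPM in the lowest of 11 libraries, 16673 in the median and 25119.5 in the highest. S100a9 stood at 6024, 22499 and 32514 CPM. Over all neutrophils S100a9 ranked 4th and S100a8 5th among 14981 detected genes. Together the pair took 3.91% of all neutrophil UMIs in the median library, with a range of 1.01% to 5.76%. Of the neutrophils, 92.1% had an S100a8 UMI and 92.6% an S100a9 UMI, against 1.54% and 2.07% of lymphocytes (0.749% and 0.920% without library 8) at a median depth of 1405 and 2813 UMIs. With every cell thinned to 500 UMIs the shares with S100a8 were 86.7% of neutrophils and 0.357% of lymphocytes. Transcripts of the pair were thus found in most neutrophils, and 146 of the 3178 had neither. The shares were lowest in library 6, at 64.2% for S100a8 and 66.0% for S100a9 over 53 neutrophils. In library 5, with 36 neutrophils, they were 72.2% and 77.8%.

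**Figure D1:**
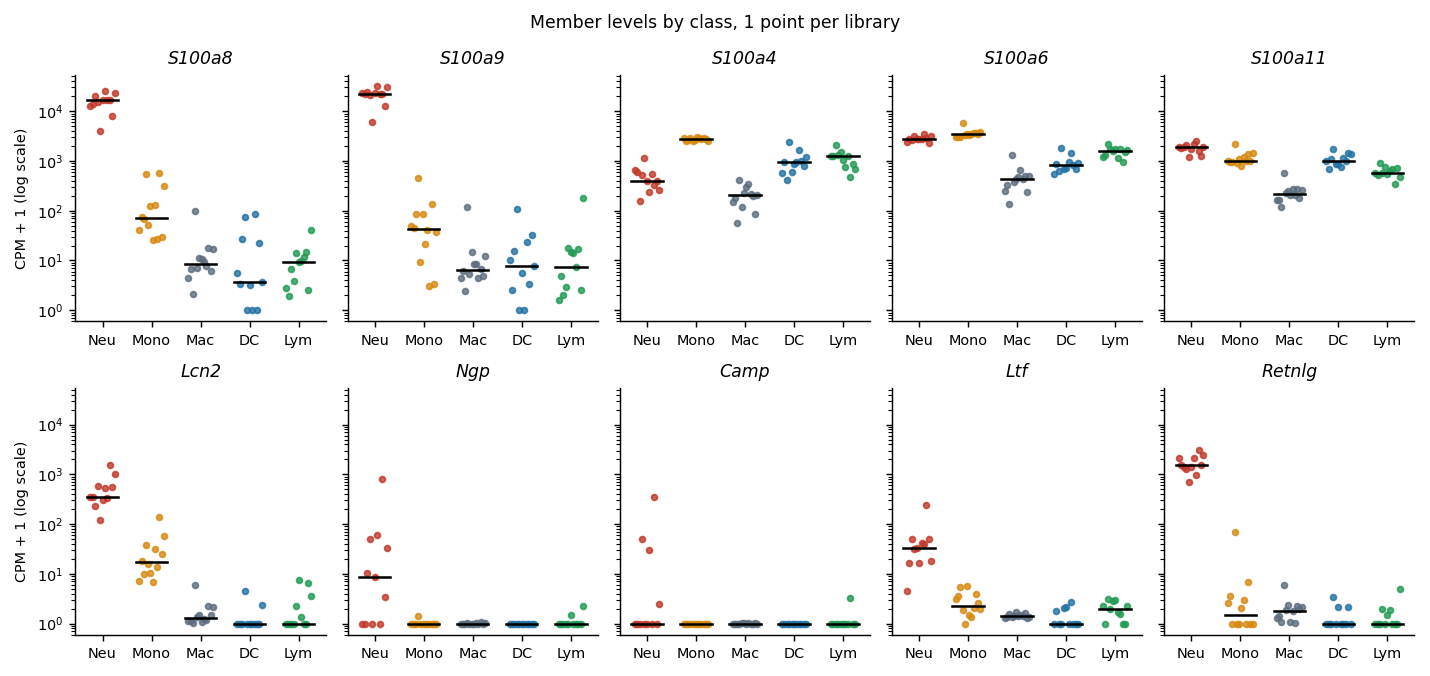
Level of each member in 5 classes, as CPM + 1 on a log axis, with 1 point per library that has at least 50 cells of the class and a black bar at the median (Neu neutrophils, Mono monocytes, Mac macrophages, DC dendritic cells, Lym lymphocytes). S100a8, S100a9 and Retnlg in neutrophils lie above every point of the other classes, whereas S100a4 is highest in monocytes, at 2491 to 3075 CPM.

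In monocytes S100a8 ranged from 24.3 to 571 CPM over 12 libraries, with a median of 70.8, and was above macrophages of the same library in 12 of 12. The highest values were 571 in library 10 and 555 in library 4. S100a9 in monocytes had a median of 42.2 CPM and a wider range, 2.08 to 453. The top value was library 4, and the next highest was 136 in library 10. S100a9 was above macrophages in 10 of 12 libraries. Every neutrophil value of either gene lay above every monocyte value, with a median within-library fold of 191 for S100a8 and 504 for S100a9. The 2 classes did not overlap for the pair, and how many of all genes show no such overlap was not counted. Most of the monocyte level came from few cells. Values were therefore also taken, after the data were seen, in the cells with fewer than 10 UMIs of the pair (a limit chosen after its distribution was seen), which made up 98.2% of the monocytes. Over the 11 libraries with at least 50 lymphocytes, such monocytes had a median of 29.0 CPM of S100a8 and 6.76 of S100a9, against 2.81 and 1.87 CPM in lymphocytes below the same limit. They were above those lymphocytes in 11 of 11 libraries for S100a8 and in 8 of 11 for S100a9.

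In macrophages the pair was near the level of lymphocytes, with no common order over libraries. Over all cells of 12 libraries, S100a8 had a median of 7.60 CPM there and S100a9 5.38. Lymphocytes had 8.45 and 6.25 CPM over the 11 libraries without library 4. Macrophages were above lymphocytes of the same library for S100a8 in 6 of 11 libraries and for S100a9 in 5 of 11. In cells with fewer than 10 pair UMIs the macrophage medians were 3.73 and 1.59 CPM, above lymphocytes in 8 of 11 libraries for S100a8 and in 4 of 11 for S100a9. Library 4 stood apart with 97.8 CPM of S100a8 in macrophages, where the other 11 libraries had at most 17.2. Its 33 lymphocytes, too few for the comparison above, had 30.3 CPM of S100a8 and 60.6 of S100a9, from 3 and 6 UMIs. Its macrophages with fewer than 10 pair UMIs had 28.8 and 26.0 CPM, not above those lymphocytes. That library also held the most neutrophils. Dendritic cells had a median of 2.68 CPM of S100a8 and 6.69 of S100a9, and were above macrophages in 4 of 11 libraries for each gene. Monocytes, by contrast, were above lymphocytes for S100a8 in 11 of 11 libraries, and for S100a9 in 9 of 11.

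The balance within the pair also differed between classes. UMIs at the 3' end count molecules, so the 2 genes can be set beside each other without a length correction. S100a8 made up 35.7% to 45.4% of the S100a8 and S100a9 UMIs of neutrophils in the 12 libraries, with a median of 42.4%, so the neutrophils held more S100a9 than S100a8 in all of them. In monocytes the S100a8 share was 44.3% to 92.6%, with a median of 69.5%, and its 95% Clopper-Pearson interval lay above the neutrophils' interval of the same library in 10 of 12. In macrophages the share was 42.7% to 75.2%, with a median of 54.2%, and also above in 10 of 12. In lymphocytes, with at least 20 pair UMIs in only 5 libraries, it was above in 0 and below in 1. The intervals cover counting error only, and UMIs that come from the same cell are not independent draws.

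**Figure D2:**
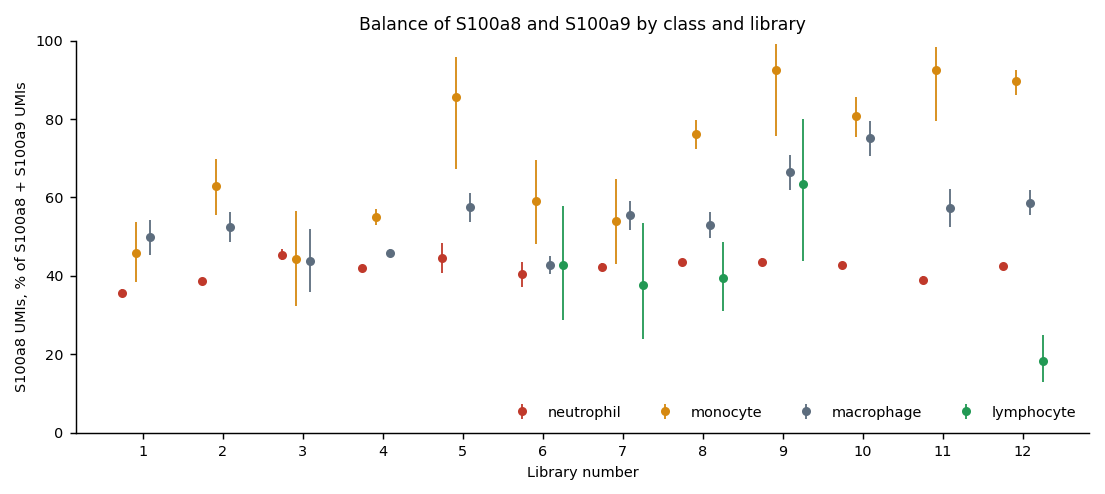
S100a8 UMIs as a percentage of S100a8 plus S100a9 UMIs, by library and class, with 95% Clopper-Pearson intervals, for classes with at least 20 UMIs of the pair in the library. Neutrophil points stay between 35.7% and 45.4%, while monocyte points reach 92.6%.

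Within the monocyte and macrophage gates, a few cells held most of the pair's UMIs. The ungated cells, with 50127 S100a8 and 63358 S100a9 UMIs, are not part of these shares. At the same limit of 10 UMIs of the pair per cell, 65 monocytes (1.85%) held 80.0% of the pair's UMIs in the class, and 243 macrophages (0.273%) held 61.9%. Library 4 held 33 of these monocytes and 99 of these macrophages, and without it the shares of UMIs were 72.3% and 49.1%. In these monocytes S100a8 was 59.6% of the pair, and in the remaining 3449 it was 75.8% (95% interval 72.8% to 78.7%). In the high macrophages it was 44.3% (43.2% to 45.3%), near the neutrophils' pooled 42.4%, and in the others 58.6% (57.3% to 59.9%). In lymphocytes 6 cells held 53.0% of the pair's UMIs (32.6% without the 1 such cell of library 12), and the others had an S100a8 share of 43.0% (36.5% to 49.7%). Thus the monocytes and macrophages with few pair UMIs had relatively more S100a8 than the neutrophils did. By library, cells below that limit were above the neutrophils' interval in 8 of 9 libraries for monocytes and 11 of 12 for macrophages, and in 0 of 2 for lymphocytes. Only libraries with at least 20 pair UMIs in such cells were counted. With fewer UMIs, lymphocytes were above in libraries 3 (11 S100a8 and 2 S100a9 UMIs) and 9 (7 and 1), and in the rest neither above nor below. Library 8 alone gave 51 S100a8 and 78 S100a9 UMIs, most of those behind the lymphocytes' 43.0%.

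Neutrophil genes moved with the pair in the high cells. The 8 neutrophil gate genes together stood at 796 CPM in the high macrophages against 230 in the others, and at 1158 against 644 CPM in monocytes. In the 6 high lymphocytes they stood at 3888 against 270 CPM, and at 956 without library 12. Monocyte gate genes were also higher in the high macrophages, at 1174 against 737 CPM, and stood at 8312 against 8558 in monocytes. The macrophage and monocyte values include library 4. Median depth was 7145 against 5167 UMIs in macrophages and 4446 against 3551 in monocytes, and the high cells were deeper in 8 of 12 libraries and in 7 of 10. The part of doublets with neutrophils in these values was not tested.

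Lcn2 and Retnlg followed the neutrophils, and Lcn2 was also present in monocytes. In neutrophils Lcn2 stood at 118 CPM in the lowest library, 347 in the median and 1518 in the highest, library 10. There the 6 cells with both Ngp and Camp, described with the granule genes, held 229 of 619 Lcn2 UMIs, and the other 228 neutrophils stood at 990.4 CPM, next to 1032 in library 12. Of all neutrophils 36.8% had a Lcn2 UMI, against 0.125% of lymphocytes. In monocytes it ranged from 5.69 to 136 CPM, with a median of 16.1. The top value was library 10, and the next highest was 55.2 in library 12. Lcn2 in monocytes was above macrophages, which had a median of 0.288, in 12 of 12 libraries. The neutrophil value was above the monocyte value of the same library in 11 of 11, by 18.7-fold in the median. Lcn2 thus stood in an order of neutrophil, monocyte and macrophage in every library that could be compared. Per 100 UMIs of the S100a8 and S100a9 pair there were 1.44 Lcn2 UMIs in neutrophils and 9.36 in monocytes, or 16.8 in monocytes without library 4. The monocyte value pools unlike cells. The 65 monocytes with at least 10 pair UMIs had 288 CPM of Lcn2 beside 8337 of the pair, and the other 3449 had 17.9 beside 54.2.

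Retnlg was at 707, 1502 and 3068 CPM in the lowest, median and highest library of neutrophils. The highest was library 10, which had 2265 CPM without the same 6 cells, below the 2402 of library 12. Of all neutrophils 45.9% had a Retnlg UMI. Monocytes had a median of 0.517 CPM and macrophages of 0.793 CPM, and monocytes were above macrophages in 6 of 12 libraries. Library 4 was again the exception in monocytes, with 67.2 CPM of Retnlg. Of the members, Retnlg was the one with neutrophil levels far above every other class but no order between monocytes and macrophages.

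Among the specific granule genes, Ltf was low in most libraries, while nearly all Ngp and Camp came from a handful of cells. Ltf stood at 3.51 to 240 CPM in neutrophils, with a median of 32.2. The highest, library 10, had 92 of its 98 Ltf UMIs in the 6 cells with Ngp and Camp, and the other 228 stood at 15.2 CPM. The next highest library had 49.5 CPM. Ltf in neutrophils was above macrophages in 11 of 11 libraries. A UMI of Ltf was seen in 112 neutrophils, or 3.52%, against 0.268% of lymphocytes. Macrophages held 0.280 to 0.704 CPM of Ltf in every library, and lymphocytes had a median of 0.937, so the macrophage level was not above the floor. Ngp had a UMI in 45 neutrophils, 25 of them with a single one, and Camp in 10. A Camp UMI was seen in 0 of 3514 monocytes, which allows a share of cells with a UMI of up to 0.0854%, and an Ngp or Camp UMI in 0 of 1558 dendritic cells, which allows up to 0.193%. These limits are on cells with a UMI at this depth and not on cells that express the gene.

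There were 8 neutrophils with both Ngp and Camp UMIs, 6 in library 10, 1 in library 4 and 1 in library 8. These 8 cells held 85.4% of the Ngp UMIs, 99.4% of the Camp UMIs and 50.3% of the Ltf UMIs of the 3178 neutrophils, and 7 of them had Ltf. The selection by Ngp and Camp fixes the first 2 shares, not those of the other genes. Their S100a8 level was 139066 CPM against 18557 in the other neutrophils, and the pair took 19.6% to 41.6% of each cell's UMIs. In pooled UMIs, Lcn2 stood at 18761 against 584 CPM, and Retnlg at 34273 against 1747. The 1 cell of library 8 held 488 of the 886 Retnlg UMIs. Single cells ran from 7707 to 26436 CPM of Lcn2 and from 7983 to 53911 of Retnlg. S100a4 was not among the higher genes, with 1 UMI in 1 of the 8 cells (38.7 CPM), and 13.9% of the other neutrophils had a UMI of it. S100a8, S100a9, Lcn2 and Retnlg were found in all 8 cells, while Ltf varied from 0 to 42 UMIs.

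Ly6g, a surface protein of mouse neutrophils that is also a gate gene, was found in 5 of these 8 cells against 4.04% of the others. Cxcr2, a chemokine receptor and gate gene, was found in 4 against 57.2%, and the chemokine Ccl3 in 4 against 65.6%. Their median depth was 2317 UMIs against 1403. With 8 cells, of which 6 come from 1 library, these values describe the cells and no condition.

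**Figure D3:**
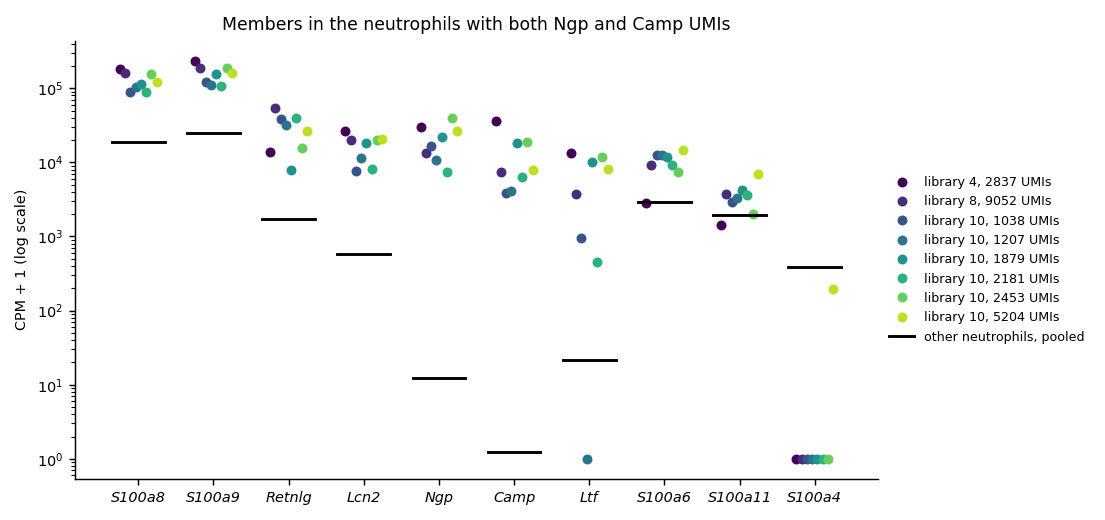
Level of each member in the 8 neutrophils with both Ngp and Camp UMIs, as CPM + 1 on a log axis, with 1 colored point per cell and a black bar for all other neutrophils pooled. S100a8, S100a9, Retnlg and Lcn2 lie above the bar on average, at 18761 against 584 CPM for Lcn2, and S100a4 is at 0 in 7 of the 8 cells.

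S100a4, S100a6 and S100a11 were found well beyond neutrophils, in monocytes, dendritic cells and T cells. S100a4, a regulator of cell motility, was highest in monocytes, at 2491 to 3075 CPM over the 12 libraries, with a median of 2771. That was the narrowest relative range of any member in monocytes. Neutrophils had 153 to 1125 CPM with a median of 400.4, below monocytes in 11 of 11 libraries, by 7.00-fold in the median. Macrophages had 54.8 to 420 CPM with a median of 202, which was 13.5-fold lower than in monocytes.

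S100a6 and S100a11 were high in both monocytes and neutrophils. S100a6 ranged from 2987 to 5742 CPM in monocytes and from 2272 to 3495 in neutrophils, and monocytes were above neutrophils in 11 of 11 libraries, by 1.26-fold in the median. S100a11, which binds annexins, had the reverse order. It stood at 1211 to 2522 CPM in neutrophils and at 780 to 2208 in monocytes, and neutrophils were above in 10 of 11 libraries, by 1.80-fold in the median. The ranges of the 2 classes overlapped for both genes, so the order rests on values within a library. Macrophages were lowest of the 5 classes for both in the median, at 439 CPM of S100a6 and 217 of S100a11.

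Lymphocytes are no floor for these 3 genes, since T and NK cells make them. Macrophages lay below lymphocytes of the same library in 11 of 11 libraries, by 6.59-fold for S100a4, 3.94-fold for S100a6 and 2.96-fold for S100a11. B cells were lower than T cells, at 60.0 against 1202 CPM of S100a4, 276 against 1532 of S100a6 and 222 against 645 of S100a11, with UMIs pooled over libraries. Leaving out 1 library at a time moved the B cells' S100a4 from 29.5 (without library 4) to 88.1 (without library 10) and their S100a6 from 184 (without library 3) to 386 (without library 10). The macrophages' pooled S100a11 of 227 CPM and the B cells' 222 were thus nearly equal.

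Dendritic cells split by type. S100a4 stood at 1850 CPM in mature dendritic cells (Ccr7, Fscn1 and Ccl22), at 2459 in Cd209a dendritic cells and at 33.2 in type 1 dendritic cells (Xcr1 and Clec9a), or 20.4 there without library 6. Where a library had 50 or more of each (3 libraries), mature cells exceeded type 1 cells in 3 of 3, by 33.3-fold for S100a4, 4.11-fold for S100a6 and 1.2-fold for S100a11. In all 12 libraries with at least 10 cells of each, an alternative added after the data were seen, S100a4 and S100a6 were higher in mature cells in 12 of 12, and S100a11 in 6 of 12. The median folds there were 102 for S100a4, 6.20 for S100a6 and 1.03 for S100a11, so the size of the S100a4 fold was not stable. S100a11 was high in both types, at 1179 and 1058 CPM pooled. Plasmacytoid dendritic cells, 151 in all, had 57.4 CPM of S100a4, 608 of S100a6 and 192 of S100a11.

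**Figure D4:**
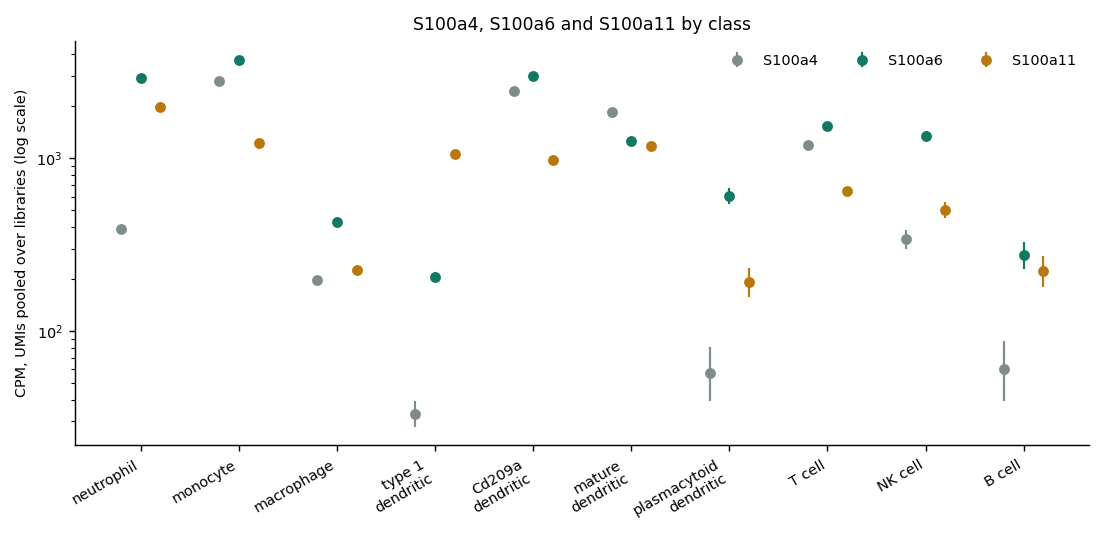
S100a4, S100a6 and S100a11 in 10 classes, as CPM of UMIs pooled over libraries on a log axis, with exact Poisson 95% intervals that cover counting error only. S100a4 falls to 33.2 CPM in type 1 dendritic cells, where S100a11 stays at 1058.

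The S100a4 level of the neutrophil gate came from few of its cells. At a limit of 3 S100a4 UMIs per cell, chosen after the values were seen, 232 neutrophils (7.30%) held 91.8% of the S100a4 UMIs, and the remaining 2946 stood at 41.0 CPM. The high cells had a median of 5544.5 UMIs against 1281.5. Their monocyte gate genes stood at 3880 CPM against 733, their macrophage gate genes at 2142 (1292 without library 4) against 863, their neutrophil gate genes at 4376 against 13260 and S100a8 at 5582 against 22891. Such cells made up 30.2% of the neutrophils of library 6, 19.4% in library 5 and 2.78% to 11.4% elsewhere. Leaving out the 10% of cells with the most UMIs turned the log2 ratio of S100a4 in neutrophils over macrophages from 1.31 to −1.51, and thinning to 500 UMIs turned it to −0.47. The direction of S100a4 between neutrophils and macrophages therefore changed with the treatment of deep cells. The part of doublets in it was not tested.

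Within neutrophils, S100a8 and S100a9 varied together from cell to cell. Pearson's r between the 2 genes, as log-transformed UMI counts scaled to each cell's depth, was 0.84 over 3178 cells that share libraries and differ in depth. A UMI of both was found in 2838 cells. Neutrophils with a Retnlg UMI, after thinning to 500 UMIs, had more S100a8 (2.35-fold), S100a9 (2.63-fold), S100a6 (1.99-fold), S100a11 (1.68-fold) and Lcn2 (2.77-fold) than those without, in 9 of 9 libraries for each. S100a4 went the other way, with 2.31-fold more in the cells without Retnlg and higher there in 7 of 9 libraries. Over all neutrophils r between S100a8 and S100a4 was −0.22. Both S100a4 values include the 232 cells described above, with 91.8% of the S100a4 UMIs and higher monocyte gate genes. Thinned likewise, neutrophils without a Ccl3 UMI, a chemokine of inflamed tissue, had 1.52-fold more S100a8 and 2.93-fold more Retnlg than those with it, in 7 of 7 libraries, and S100a9, S100a6, S100a11 and Lcn2 were also higher without it in 7 of 7. Cells with Cxcr2, a gate gene, had 1.24-fold more S100a9 and 1.36-fold more S100a11 in 7 of 7, more S100a8 in 6 of 7 and more Retnlg in 3 of 7. On all UMIs, S100a9 was higher with Cxcr2 in 7 of 9 libraries and S100a11 in 8 of 9. S100a8 and Retnlg were each higher in 6 of 9. S100a4 with Cxcr2 had no stable direction, lower in 7 of 7 libraries after thinning and higher in 6 of 9 on all UMIs.

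**Figure D5:**
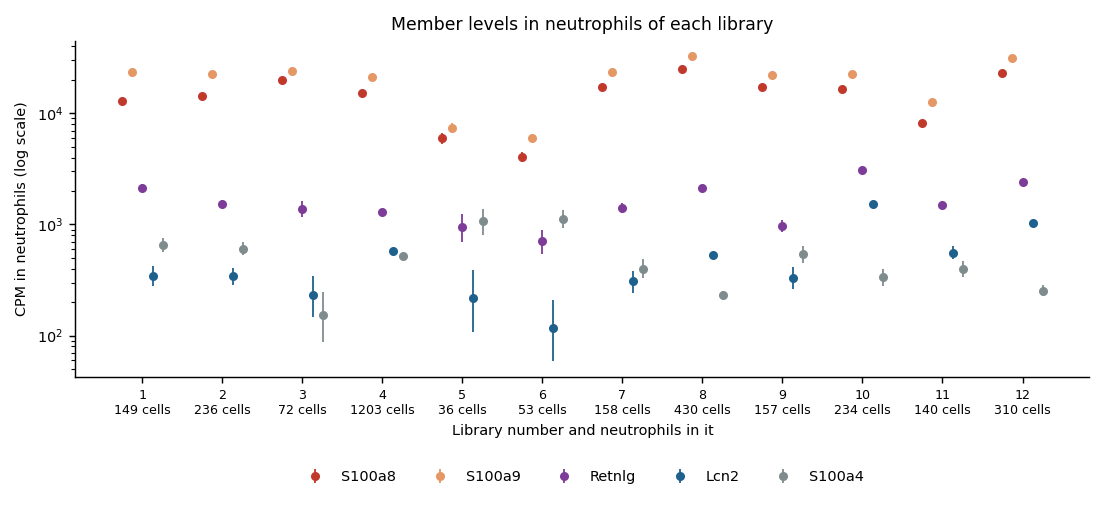
S100a8, S100a9, Retnlg, Lcn2 and S100a4 in the neutrophils of each library, as CPM on a log axis with exact Poisson 95% intervals that cover counting error only, and with the number of neutrophils under each library. Libraries 5 and 6 are lowest for S100a8, at 5949 and 4084 CPM, and highest for S100a4, at 1064 and 1125.

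Neutrophil levels differed between libraries. Library 6 was lowest for S100a8, S100a9, Lcn2 and Retnlg, at 4084, 6024, 118 and 707 CPM, over 53 neutrophils. Its neutrophil gate genes stood at 3998 CPM, against 6619 in library 5 and at least 9091 in the other libraries. Library 11 was the next lowest of the 11 for S100a8, at 8100 CPM, with gate genes at 9226. Library 10 was highest for Lcn2 and Retnlg only with its 6 Ngp and Camp cells. Its S100a8 of 16673 CPM was the median, and 13089 without them. Low pair levels in libraries 5 and 6 thus went with low levels of other neutrophil genes and with high S100a4.

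Library 4 also stood apart in S100 genes of its macrophages, monocytes and dendritic cells. In macrophages it had 1301 CPM of S100a6, where the other libraries had at most 653, 574 of S100a11 against at most 274, and 420 of S100a4 against at most 340. In monocytes it had 5742 CPM of S100a6 against at most 3783, and 2208 of S100a11 against at most 1472, while its S100a4 of 2896 lay inside the range of the other libraries. Its dendritic cells were likewise highest for all 3 genes, at 2367 CPM of S100a4, 1801 of S100a6 and 1744 of S100a11. Mature cells were 89.2% of them, against 40.0% to 74.5% in the other libraries. Its mature cells alone were also highest, at 2781, 1986 and 1740 CPM against at most 2373, 1510 and 1220 in the other 11 libraries, some of which had fewer than 50 such cells. In its neutrophils S100a6 and S100a11 stood at 3155 and 2062 CPM, inside the range of the other libraries. The monocyte gate genes in its macrophages stood at 1290 CPM against 501 to 968 elsewhere, and their part in the result was not tested.

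Set against all genes, the members leaned to the higher side in neutrophils and monocytes. A gene was counted where it was at least 2-fold higher, or lower, than in macrophages in every library with at least 50 cells of both, among 11157 genes with at least 1000 UMIs, and 7 of the 10 members had that many (Ngp, Camp and Ltf did not). In neutrophils 6 of 7 were higher (S100a8, S100a9, S100a6, S100a11, Lcn2 and Retnlg) and 0 lower, where 2.23% of all genes were higher and 3.84% lower. In monocytes 5 of 7 were higher (S100a8, S100a4, S100a6, S100a11 and Lcn2) and 0 lower, where 1.27% of all genes were higher and 2.07% lower. In dendritic cells 2 of 7 were higher (S100a4 and S100a11) and 0 lower, where 3.12% of all genes were higher and 6.14% lower. The members' median log2 ratio to macrophages was 8.27, 3.01 and −0.24 in the 3 classes, beside −0.81, −0.20 and −0.17 over all genes tested. Without library 6 the neutrophil counts over all genes rose from 249 to 454 higher and from 428 to 702 lower, and the members' count stayed at 6. The members were chosen by name, in part as neutrophil genes, so a lean to neutrophils was partly set in advance. Neutrophils held 14741 of the 19500 UMIs of Retnlg and 5119 of the 8091 of Lcn2, which helped both genes pass the UMI limit. The counts are a description and no test of the members.

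Above lymphocytes in every library were 7 members in neutrophils (S100a8, S100a9, S100a6, S100a11, Lcn2, Ltf and Retnlg), 4 in monocytes (S100a8, S100a4, S100a6 and S100a11), 1 in dendritic cells (S100a11) and 0 in macrophages. Libraries entered with at least 50 cells of the class and 10 lymphocytes. These were 11 for neutrophils and dendritic cells and 12 for monocytes and macrophages. With B cells alone as the floor, over 8, 9, 8 and 9 libraries, the counts were 7, 6, 2 and 3. Macrophages gained Lcn2, Ltf and Retnlg, at pooled levels of 0.591, 0.446 and 0.878 CPM, for which the 257 B cells had 0 UMIs. In so few B cells 3 UMIs come to 6.67 CPM, so this floor could not have shown such levels and the 3 gains carry no weight. The share of all genes above either floor was not taken, so these counts describe the members and do not set them apart from other genes.

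Among related genes, the other specific and gelatinase granule genes showed both sides of the split between neutrophils and monocytes. Of 12, 11 had enough UMIs, and 6 were called higher and 1 lower in neutrophils than in macrophages. Mmp9 was mainly a neutrophil transcript, at the values given for the class check, and Wfdc21 stood at 352 CPM against 10.4 in monocytes (6.56 without library 4). Haptoglobin (Hp) was shared, at 413 CPM in neutrophils and 250.1 in monocytes, and the collagenase Mmp8 stood at 135 and 42.9 CPM. Chil3, a chitinase-like protein, was higher in monocytes, at 1733 against 198 CPM, and 4 genes of the list were called in monocytes (Mmp8, Cd177, Chil3 and Hp). Lysozyme (Lyz2) was the 1 called lower in neutrophils, at 1822 CPM against 8077 in macrophages.

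Azurophil granule genes were scarce. Of 5, only Prtn3 had enough UMIs, and it was called higher in monocytes, at 28.9 CPM against 1.51 in macrophages and 6.79 in neutrophils. Of the other 11 S100 genes only 3 had enough UMIs, and S100a10, the partner of annexin A2, was called in monocytes, at 1290 against 274 CPM. The stefin Stfa2l1 was at 261 CPM in neutrophils (151 without library 8) and 0.110 in macrophages, and was not called since it was listed at 0 in the lowest neutrophil library.

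Receptors of the S100 and granule proteins were distributed differently. Tlr4, a receptor for calprotectin, was called in neutrophils, at 106 CPM against 48.7 in monocytes and 23.9 in macrophages. Fpr2, the receptor for cathelicidin peptides, was called in neutrophils at 175 CPM and in monocytes at 30.6, against 6.12 in macrophages. Bsg, which also binds S100A9, was abundant in all 3 classes, at 434 CPM in neutrophils, 298 in monocytes and 374 in macrophages. Ager, another S100 receptor, was at 1.26 CPM or less in those classes, and the lipocalin receptor genes Slc22a17 and Lrp2 at 0.471 CPM or less. Of the granulopoiesis factors, Cebpd was called higher in neutrophils, at 135 against 24.3 CPM, and Cebpa lower, at 15.1 against 95.5. Cebpb was at 7194 CPM in neutrophils and 1086 in macrophages without a call. In dendritic cells Cebpa and Cebpb were called lower.

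The genes whose levels were most like those of the members were named by Pearson's r of log2(CPM + 1) over 57 sums of a class in a library, which share libraries and cell types. S100a8 was most like S100a9 (0.97), then AC110211.1 (0.95) and Lcn2 (0.94). Lcn2 was most like Lrg1 (0.97), Retnlg most like Chil1 and Cxcr2 (both 0.97), and Ltf most like Cxcr2 (0.89). Cxcr2 is a gate gene of the neutrophils, so its likeness to neutrophil members is in part built in by the gate. S100a4 and S100a6 were both most like Anxa2, at 0.84 and 0.86, and were like each other at 0.80. S100a11 was most like Chst11 (0.85), with no other member among its nearest 3. The S100 members thus fell into different neighborhoods, with the calprotectin pair beside neutrophil genes and S100a4 and S100a6 beside an annexin.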

How the data were processed

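Single-cell RNA sequencing of CD45+ cells gave 12 libraries, one from each of 12 mice. Per the file headers the authors deposited raw UMI counts per gene and barcode as 1 matrix of 31053 genes and 140639 barcodes, made with Cell Ranger 3.0.2, while the submitters' processing notes name Cell Ranger 2.1.1, Seurat and the mm10 build. The counts were not normalized. A barcode counted as a cell if it had over 200 but under 5000 genes and no more than 10% of its UMIs from mitochondrial genes. A class needed UMIs of at least 3 of its marker genes (8 for neutrophils and 6 for each other class) and 2 more than any other class, and 25784 cells met no gate. The gate was set after the depth of the cells was seen. No doublet caller was run, and the margin left out the cells with similar numbers of markers of 2 lineages, but not all cells with some of both. Class names stand for these gates.

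The members and all gene lists were chosen with earlier results of these data known. UMIs were summed per class and library and expressed as counts per 1000000 (CPM). Ratios are log2 of CPM with 1 added, and folds are their antilogs. Since the labels and files do not tie library numbers to mice, the matrix was treated as 1 pooled sample: no test between treatments and no p-value was computed. Intervals are exact Poisson for sums and Clopper-Pearson for shares, at 95%, and cover counting error only. A count of 0 was given the limit that 3 cells or UMIs allow. Genes named were the 10 members, fixed lists of relatives and partners, and the 3 genes most correlated with each member, of which those of Ngp and Camp are left out since both were at 0 in most sums. The scripts were tested on simulated counts. Alternatives changed the gate, the cell filters, the fold, the added CPM, the floor, the depth (thinning to 500 UMIs) and the libraries used. Python 3.11.15, numpy 2.4.6, scipy 1.17.1 and pandas 2.3.3 were used. Gene positions are from the GRCm38 annotation, and promoters from RefSeq, GRCm38.p6.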

Additional observations from a re-analysis of the deposited data

How the results depend on the processing

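Of 40 log2 ratios of members between classes, 24 were at least 2-fold, and 21 of these kept their sign under all 20 alternatives. The ratios of Ngp in neutrophils over macrophages and over monocytes, from few molecules, fell to 0 after thinning. S100a4 in neutrophils over macrophages reversed to −1.51 without the 10% of cells with the most UMIs and to −0.47 after thinning to 500 UMIs. No paired analysis was possible because the labels do not tie the library numbers to mice and no test between groups was made.

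Counts of genes past the fold against macrophages moved more. One more gate marker gave 444 higher in neutrophils. Leaving out those 10% of cells gave 499 higher and 1702 lower. Thinning gave 854 lower in neutrophils, 67 higher in monocytes (3 of them members) and 128 higher in dendritic cells. A 4-fold limit gave 89 higher and 42 lower in neutrophils, 34 and 36 in monocytes (3 members higher), and 139 and 257 in dendritic cells (0 members). With 10 CPM added there were 171 lower in neutrophils, 77 higher and 79 lower in monocytes (3 members higher), and 214 higher and 407 lower in dendritic cells. Without 1 library at a time the neutrophil counts ran from 249 to 454 higher and 428 to 702 lower, the upper ends without library 6. The members' counts did not move when 1 library was left out. With B cells as the floor 3 members were above it in macrophages and 2 in dendritic cells, but the 257 B cells are too few to show the macrophage levels of those 3. Pooled values without a library, and values without the Ngp and Camp cells of library 10, were added after the data were seen. Causes were not tested.

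Neutrophils had the lowest depth per cell of the 5 classes, and Ngp, Camp and Ltf had fewer than 1000 UMIs in all, so their levels by library rest on few molecules. Doublets and free RNA were not removed, and no sorted or marrow neutrophils were measured.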

Other observations

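The cells outside the gates also held members. Ungated cells, 25784 in all with a median of 3505 UMIs, had 370.0 CPM of S100a8, 468 of S100a9, 1197 of S100a4 and 1999 of S100a6. The pair's levels rested on library 4, with 1418 and 1848 CPM, and were 190 and 230 CPM without it. Among these cells were 2 further cells with both Ngp and Camp. In the 41 cells that met the stroma gate, S100a6 stood at 4799 CPM, above the pooled 3725 of monocytes. In the 28 mast or basophil cells S100a4 had 0 UMIs and S100a6 15. In 151 plasmacytoid dendritic cells, S100a8 and S100a9 had 35 UMIs each, which is 62.8 CPM, or 10.2 without library 12.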
